A study of Mus musculus with 36 samples.

Results

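Messenger RNA of Zfp266 knockout (KO) cells at day 5 of reprogramming was compared with that of control cells at day 7, which had been reprogrammed for 2 more days. The comparison holds 6 of the 36 samples of the series, namely the 3 libraries labelled Zfp266-KO at day 5 (D5 KO) and the 3 labelled Control at day 7 (D7 WT), both chosen by the sample titles alone. The comparison asks how far the knockout cells at the earlier day resembled the control cells at the later day, and in which genes they stood apart from any control day. In both groups, mouse embryonic fibroblasts (MEFs), labelled as strain 129 and made from a single engineered embryonic stem cell line, carried Cas9, a Nanog-GFP reporter and a doxycycline-inducible cassette of Myc, Klf4, Oct4 and Sox2 (MKOS) that is marked by mOrange. Both had received a guide RNA by lentivirus 24 h before induction, a Zfp266 guide in D5 KO and a non-targeting guide in D7 WT, and both were then kept in medium with 300 ng/ml doxycycline and 10 µg/ml vitamin C. The cells were grown among an excess of unmarked wild-type MEFs and were sorted for mOrange before RNA extraction. A D5 KO library was therefore a mixed population of edited cells and not a clone, and it may hold cells in which the gene was left intact. The other groups used for reference were control cells at day 3 (D3 WT) and day 5 (D5 WT), KO cells at day 7 (D7 KO), control MEFs (MEF WT, passage 2 cells of embryonic day 12.5) and embryonic stem cells of Clone J (ESC WT), the parent of the knockout ESC clones, each with 3 libraries. Day and genotype differ together between D5 KO and D7 WT, so a difference between them cannot be told apart into an effect of time and an effect of the guide from these 2 groups alone.

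During reprogramming by Oct4, Sox2, Klf4 and Myc, fibroblasts first silence mesenchymal genes and take on epithelial genes, and the network of pluripotency regulators around Nanog and Esrrb is switched on later, in a minority of cells. Progress is therefore often read from both ends, as the loss of fibroblast genes and the gain of embryonic stem cell (ESC) genes, and the rates need not be equal. ZFP266 is a protein with a KRAB domain and an array of zinc fingers. KRAB zinc finger proteins bind DNA and recruit the corepressor TRIM28, which silences nearby chromatin.

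Guide sequences are shown because they define the genotypes of the groups, which also differ by day. The study's plasmid list marks 1 Zfp266 guide as used for its detailed analyses, although the methods do not name the guide used for RNA sequencing. The control guide has no match in the Zfp266 transcripts. In the Zfp266 guide the capitals mark the 3 bases after the target that form the PAM, the motif Cas9 needs for cutting.
Control guide: gcgaacttccgggacgcctc
Zfp266 guide with PAM: cagaagaatctataccgagAGG
The 19 bases of the Zfp266 guide lie at chr9:20505091-20505109 on the minus strand of GRCm38, the strand of the gene, in an exon of 3 of the 6 annotated Zfp266 transcripts and in coding sequence of 2 of them.

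Zfp266 itself was read at 1507, 1646 and 1707 normalised counts in the D5 KO libraries, where a normalised count is the number of reads divided by the size factor of the library. The D7 WT libraries held 1437, 1432 and 1535, and the lowest D5 KO library fell within their range. The difference was not significant (log2FC 0.14, SE 0.08, FDR 0.208), and it was shown to be under 2-fold (FDR 1.79e-28). Small insertions and deletions left by Cas9 need not change the transcript level, so this count does not check the edit, and the labels were taken as given. For its MEF samples with the Zfp266 guide the study reported mostly out-of-frame insertions and deletions. That measurement was of MEFs and not of the D5 KO libraries.

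Total counts were 28707117 to 39610939 in the 6 libraries, and a count of 0 allowed up to 2.31 to 3.15 normalised counts, counting error only. D7 WT replicate 1 stood apart in 9 entries, annotated as 6 miRNAs, 1 ribosomal RNA, 1 antisense gene and 1 protein-coding gene and chosen here as those with at least 1000 reads and over 5-fold above both other D7 WT libraries. These entries took 2.81% of its counts and 0.192% to 0.680% of the other 35 libraries, and all 9 are among the genes counted below as lower in D5 KO. The 4 factors of the cassette were read at means of 54200.4 (Pou5f1, which encodes Oct4), 19096 (Sox2), 28968 (Klf4) and 24541 (Myc) normalised counts in D5 KO against 37.0, 168, 1336 and 842 in MEF WT. All 4 differed by under 2-fold between D5 KO and D7 WT (log2FC 0.27 to 0.38, D5 KO higher in each mean), and 0 passed by FDR. Their sum was 119677 to 134391 normalised counts in D5 KO and 92187 to 108844 in D7 WT, without overlap, and 106272 to 130568 in D5 WT. The part of this difference in the other values was not tested. Reads of the cassette and of the endogenous genes were not told apart in these counts. The labels do not say whether replicates were separate cultures, so p-values measure the spread between these libraries. In bulk RNA, fewer cells of a type and less RNA per cell cannot be told apart.

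Most genes were alike between knockout cells at day 5 and control cells at day 7, and most of the genes with a large difference were lower in the knockout cells. Of 19357 genes tested with DESeq2, 13657 (the background for the lists below, 70.6%) were shown to differ by under 2-fold, by a test of likeness in which an FDR under 0.05 means that the difference is smaller than 1 on the log2 scale. Differentially expressed genes (DEGs, an FDR under 0.05 and a log2 fold change, log2FC, beyond 1 in either direction, D5 KO over D7 WT) numbered 893. Among these 88 (0.455% of genes tested) were higher in D5 KO and 805 (4.16%) were lower. By FDR alone the split was more even, with 1251 genes (6.46%) higher and 1842 (9.52%) lower. Genes called alike below passed the likeness test, and may still differ by FDR with a difference under 2-fold. The 3 D5 KO libraries did not overlap the 3 D7 WT libraries in 831 of the 893 DEGs, a count that the choice of DEGs on these libraries largely sets, beside 40.6% of all genes tested. An overlap is stated wherever a DEG named below had one. Leaving out D7 WT replicate 2 took the higher DEGs from 88 to 58, and leaving out D7 WT replicate 1, the library with those 9 entries, gave 83 higher and 759 lower DEGs. With the fold change of 2 built into the test itself, 2 genes, Snx20 and Nod2, were higher and 36 lower.

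The same fit gave the other sides of the triangle, which share libraries with this comparison and are set beside it as values only. D5 KO against D5 WT held 143 higher and 67 lower DEGs (1.19% of genes tested). D7 WT against D5 WT, the 2 days of control reprogramming, held 934 higher and 210 lower (5.91%). D5 KO against D3 WT held 1239 higher and 865 lower (10.0%). D5 KO thus held fewer DEGs against the control cells of its own day than against those of day 7 or day 3.

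Placed between MEFs and ESCs, the groups coincided on a single score and parted when its ESC and MEF genes were read separately. The score was built from the 11867 genes that passed the same FDR and fold rule between ESC WT and MEF WT, with 0 at the MEF WT mean and 100 at the ESC WT mean, and used no library of the 2 groups. D5 KO stood at 49.4 ± 0.241 and D7 WT at 49.1 ± 0.597 (mean ± SD, n = 3 each), with overlapping libraries (difference 0.29, two-sided exact permutation p = 0.4). On the 5565 ESC-associated genes the D5 KO libraries stood at 40.9, 41.8 and 41.1 and the D7 WT libraries at 47.9, 51.5 and 48.1. D5 KO minus D7 WT was -7.94 points, so the knockout cells were behind in the gain of ESC genes, without overlap (exact permutation p = 0.1, the smallest that 3 against 3 can give). On the 6302 MEF-associated genes the order was turned around, with D5 KO at 55.3, 54.0 and 55.2 and D7 WT at 49.4, 48.7 and 49.2. Here D5 KO was 5.78 points ahead in the loss of MEF genes, again without overlap (exact permutation p = 0.1). Sorting may have left some of the unmarked wild-type MEFs in a library, and their part in these positions was not tested.

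Control cells differed between the days mainly on the ESC genes. Control means on ESC-associated genes were 28.3 ± 1.74 at day 3 and 36.8 ± 0.844 at day 5, and D5 KO lay between the controls of days 5 and 7. On MEF-associated genes the control means were 48.9 ± 2.60, 51.2 ± 0.948 and 49.1 ± 0.375 at days 3, 5 and 7, and every D5 KO library lay above all 9 control libraries. D7 KO reached 60.0 ± 0.532 on ESC-associated and 57.4 ± 2.33 on MEF-associated genes. The gap between both positions (ESC minus MEF position) was -13.6 ± 1.17 in D5 KO and -14.4 ± 1.01 in D5 WT, against 0.129 ± 2.39 in D7 WT and 2.65 ± 2.12 in D7 KO, so on this measure D5 KO resembled the control of its own day.

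**Figure D1:**
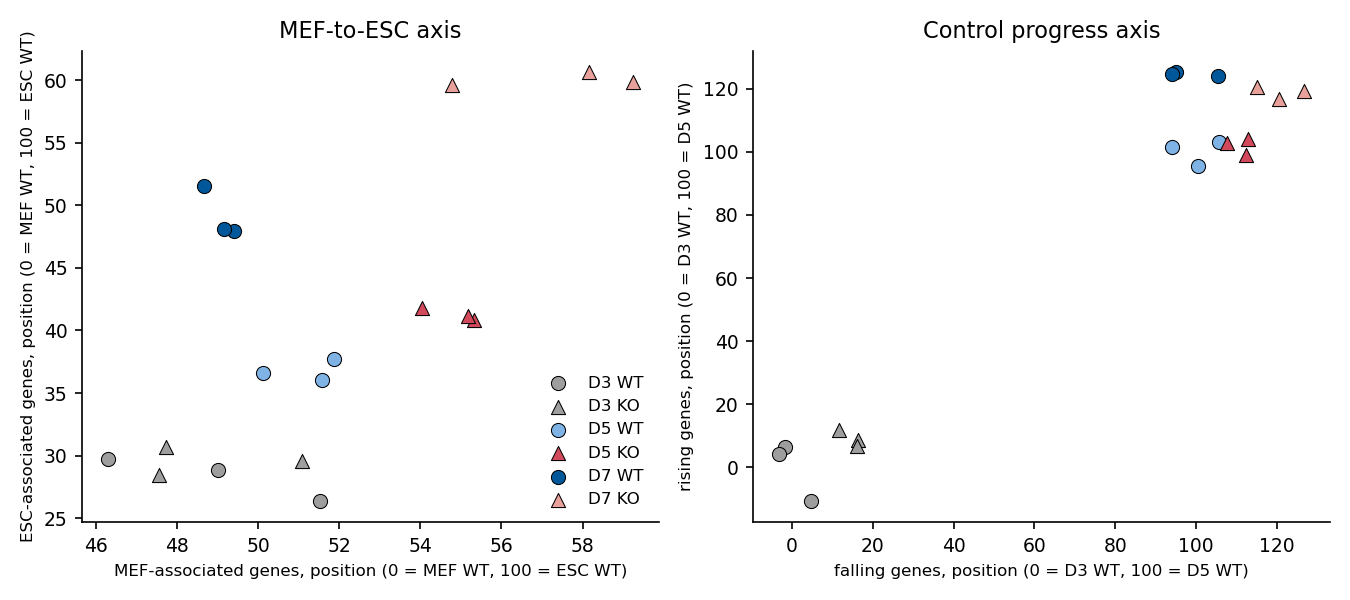
Positions of the 18 reprogramming libraries (control and KO at days 3, 5 and 7), 1 point per library (circles control, triangles KO). Left, ESC-associated genes (vertical) against MEF-associated genes (horizontal), where 0 is MEF WT and 100 is ESC WT, and right, genes rising (vertical) against genes falling (horizontal) in controls from day 3 (0) to day 5 (100). D5 KO sits to the right of and below D7 WT in both panels, at 54.0 to 55.3 on MEF-associated genes where D7 WT is at 48.7 to 49.4, and the axes of the left panel do not start at 0.

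A second axis used only control cells. Its genes were the DEGs that rose (1054) or fell (397) from D3 WT to D5 WT, with D3 WT at 0 and D5 WT at 100. On rising genes D5 KO libraries stood at 99.0, 104 and 103, about where D5 WT stood. The D7 WT libraries were at 124, 125 and 125. ESC WT libraries stood at 37.0, 37.9 and 38.4 on the same rising genes. A higher position on rising genes is therefore not a position nearer to ESCs. On falling genes D5 KO stood at 112, 113 and 108 and D7 WT at 105, 94.9 and 94.1, so D5 KO had gone further down than D7 WT, without overlap (exact permutation p = 0.1 for rising and for falling genes). The D7 WT mean on falling genes, 98.2 ± 6.34, differed from that of D5 WT, 100 ± 5.82, by less than the spread of the libraries. The lead of D5 KO on falling genes was 12.7 points and shrank to 5.26 (p = 0.3) when the genes were taken by FDR alone and to 6.11 (p = 0.3) with genes of at least 50 normalised counts, both by the same exact permutation test.

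Genes of both ends of the axis were among those lower in D5 KO. ESC-associated genes gave 325 lower and 28 higher DEGs among 4909 tested (6.62% lower, against 4.16% of all genes). MEF-associated genes gave 332 lower and 25 higher among 5786 (5.74% lower). Genes of neither class gave 148 lower and 35 higher among 8662 (1.71% lower), where the higher count was 21 without D5 KO replicate 2 and 20 without D7 WT replicate 2. Of the classes counted, the largest share was among genes that rose in controls from day 3 to day 5 and are ESC-associated, of which 96 of 489 (19.6%) were lower in D5 KO, with a median log2FC of -0.39 beside -0.02 over all genes tested. Genes that fell in controls and are MEF-associated had 26 lower and 8 higher DEGs among 271 (median log2FC -0.27).

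Pluripotency regulators had the largest share of DEGs among the 25 lists. Of 37 regulators tested, 19 (51.4%) were lower in D5 KO and 0 higher, with a median log2FC of -1.16. Tfcp2l1, a transcription factor of the naive pluripotent state, was read at 713, 1178 and 791 normalised counts in D5 KO and at 2321, 2654 and 2139 in D7 WT (log2FC -1.41, SE 0.16, FDR 1.16e-15). All D5 KO values were below all D7 WT values, and D5 WT was lower still (397 ± 42.3, mean ± SD, n = 3). Nanog, a homeodomain factor at the core of the network, stood at 207, 334 and 311 in D5 KO and 562, 745 and 641 in D7 WT (log2FC -1.19, SE 0.15, FDR 1.51e-12). For Dppa5a, which encodes an RNA-binding protein of pluripotent cells, the values were 79.2, 183 and 106 in D5 KO and 462, 1627 and 815 in D7 WT (log2FC -2.98, SE 0.54, FDR 2.73e-06), against a mean of 2.41 in D5 WT. Dppa2, a chromatin protein that primes early embryonic genes, was at 16.2, 22.0 and 17.7 in D5 KO against 32.5, 133 and 47.3 (log2FC -1.93, SE 0.36, FDR 4.29e-06). These 4 genes were higher in D5 KO than in the control of the same day (FDR 5.25e-10, 1.95e-14, 7.73e-11 and 2.28e-04 in this order) and lower than in the control of day 7, while the D7 KO means of 6119, 1229, 9475 and 697 were above both. Across the 19 lower regulators the D5 KO mean was above D5 WT in 17, of which 12 passed by FDR, and below it in 2, of which 0 passed. The lower pair were Lefty1 and Utf1, a chromatin factor of ESCs chosen after its values were seen, at 80.1, 75.5 and 120.2 in D5 KO and 144 in D5 WT (log2FC of D5 KO over D5 WT -0.64, FDR 0.153). Every D5 KO library was below all 9 control libraries of days 3, 5 and 7 for Utf1. Of the 37 regulators 1 lay below and 1 above that range in D5 KO, beside 1.91% and 2.11% of all genes tested.

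Some other regulators were shown to differ by under 2-fold. The likeness test placed 13 of the 37 regulators (35.1%, beside 70.6% of all genes) under 2-fold. By FDR alone 24 of the 37 were lower in D5 KO and 1 was higher. L1td1, an RNA-binding protein of ESCs, was at 7292, 9056 and 7818 in D5 KO and 8143, 8682 and 8447 in D7 WT (log2FC -0.06, FDR of the likeness test 1.82e-27), where D5 WT held 5317. Trim71, a ubiquitin ligase and RNA repressor of stem cells, was at 2753, 3285 and 2835 in D5 KO against 3476, 3247 and 3079 (log2FC -0.14, FDR of the likeness test 4.26e-19). Esrrb, an orphan nuclear receptor of the network, was lower in D5 KO by FDR but not by the fold rule, with 1336, 1646 and 1377 in D5 KO and 1902, 2119.5 and 1830.4 in D7 WT (log2FC -0.43, SE 0.11, FDR 0.00219), and it too was shown to differ by under 2-fold (FDR 2.96e-07). Tcl1, a coactivator of the kinase AKT, spread over 152, 307 and 353 in D5 KO and 371, 442 and 431 in D7 WT and passed neither test (log2FC -0.61, SE 0.31, FDR 0.166). Lin28a, an inhibitor of let-7 maturation chosen after its values were seen, was the member higher in D5 KO by FDR, at 7111, 7061 and 6979 against 4723, 4377 and 4509.6 (log2FC 0.64, SE 0.11, FDR 2.32e-07).

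Secreted signals of the list were lower as well. Nodal, a TGF-beta ligand, and its inhibitors Lefty1 and Lefty2 (these 3 were chosen after their values were seen) were all DEGs. Nodal was at 4.77, 17.8 and 9.25 in D5 KO against 54.8, 55.4 and 46.3 in D7 WT (log2FC -2.33, FDR 8.30e-12). Lefty1 was at 115, 125 and 258 in D5 KO against 387, 617 and 1469 in D7 WT (log2FC -2.31, FDR 1.93e-06), beside 338 in D5 WT (FDR of D5 KO over D5 WT 0.129). Lefty2 was at 846, 964 and 1056 against 1365, 2543 and 3109 (log2FC -1.29, FDR 0.00513). Of the 19 lower regulators, Lefty1 was the only one whose D7 KO mean, 533, was below D7 WT. Dppa3, a maternal factor that guards DNA methylation and was also chosen after its values were seen, was at 0 in 2 of 3 D5 KO libraries and at 20.3, 39.3 and 10.3 in D7 WT. Its FDR was 2.77e-04, and no fold is given because D5 KO was at or under the level of 3 reads.

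**Figure D2:**
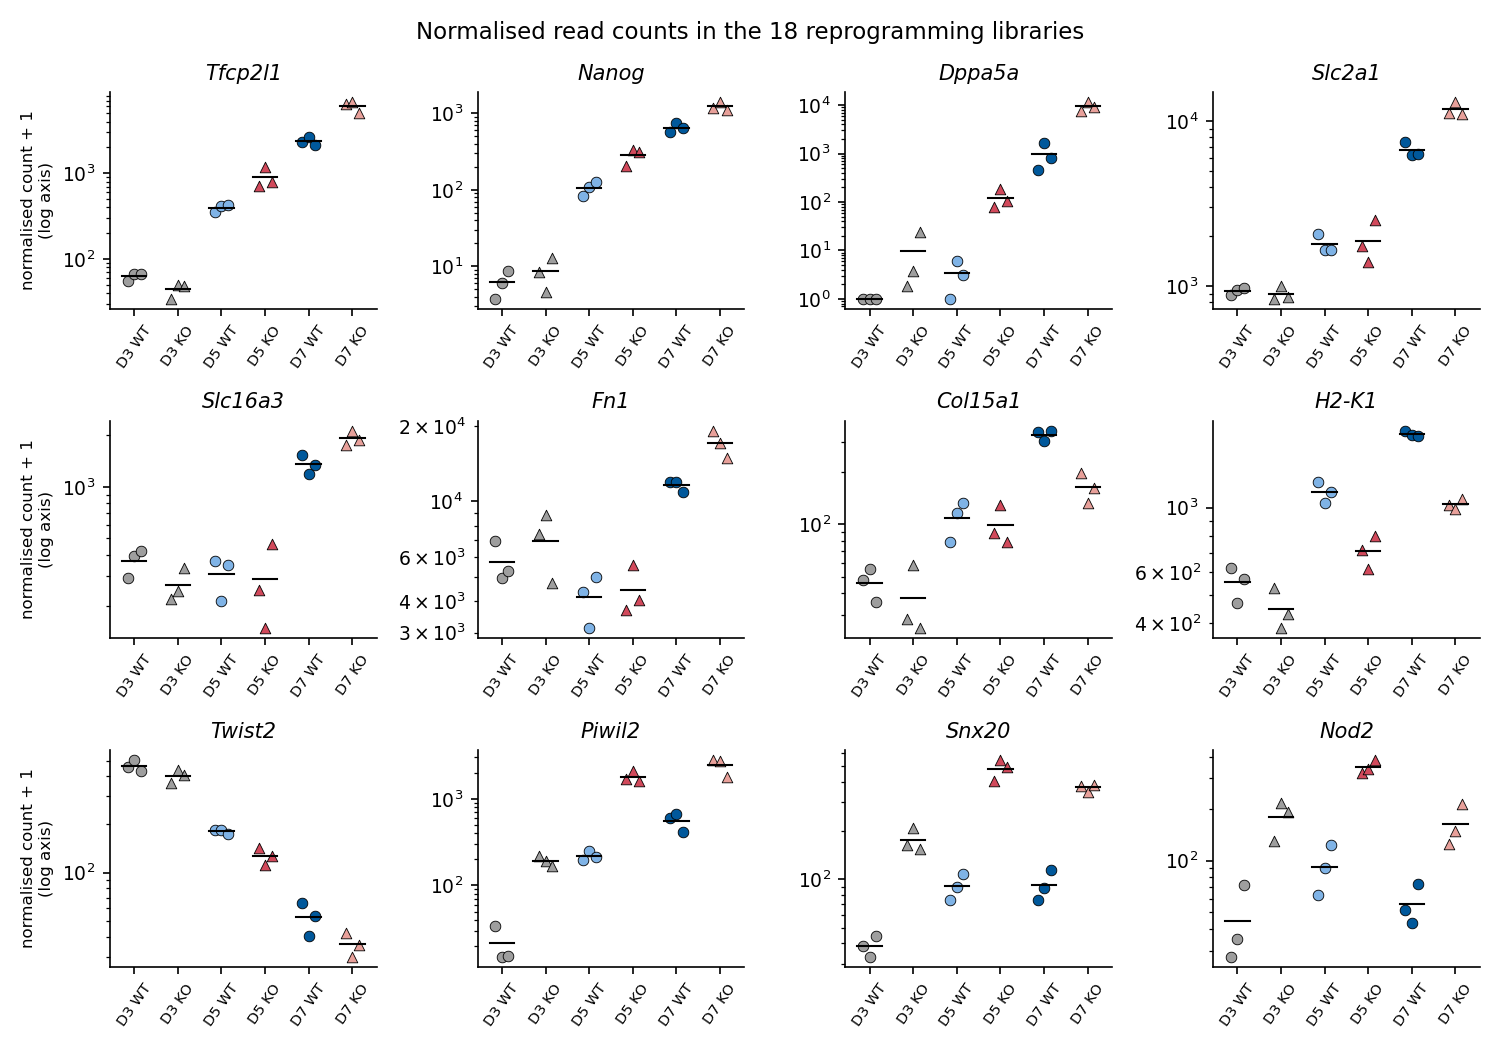
Normalised counts plus 1 on log axes for 12 genes in the 6 reprogramming groups, 1 point per library (circles control, triangles KO) with a line at the mean of 3. Tfcp2l1, Nanog and Dppa5a lie between D5 WT and D7 WT in D5 KO, Slc2a1, Slc16a3, Fn1 and Col15a1 lie at the D5 WT level, H2-K1 lies below both, Twist2 lies between them, and Piwil2, Snx20 and Nod2 lie above both (the D5 KO and D7 WT values of Snx20 are 402, 547 and 494 against 73.0, 87.6 and 112).

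The transporters Slc2a1 and Slc16a3 were lower DEGs in D5 KO. Most glycolysis genes were lower by FDR, and most were shown to differ by under 2-fold. Of 21 glycolysis genes, 4 (19%) were lower DEGs and 0 higher, and 16 (76.2%, beside 70.6% of all genes) were under 2-fold. By FDR alone 12 were lower and 2 higher, beside 9.52% lower and 6.46% higher of all genes tested. Slc2a1, the glucose transporter GLUT1, was at 1746, 1398 and 2502 in D5 KO and 7512, 6251 and 6307 in D7 WT (log2FC -1.83, SE 0.17, FDR 8.85e-23). Slc16a3, a lactate exporter, was at 249, 148 and 461 in D5 KO against 1533, 1187 and 1339.6 (log2FC -2.24, SE 0.23, FDR 1.67e-19). Slc2a3, the other glucose transporter of the list, named after its values were seen, was lower by FDR but no DEG (log2FC -0.71, FDR 2.93e-08). Every D5 KO library was below the lowest D7 WT library for both Slc2a1 and Slc16a3. Their D5 WT means, 1791 ± 229 and 309 ± 83.4 (SD, n = 3), were close to D5 KO, and D7 KO was higher than D7 WT at 11822 and 1920.4. Pdk1, a kinase that inhibits pyruvate dehydrogenase and stands among the 10 lowest FDRs, was at 653, 636 and 876 in D5 KO and 2239.6, 2214 and 1765 in D7 WT (log2FC -1.52, SE 0.14, FDR 5.59e-25). The remaining lower DEGs of the list were Aldoc and Eno2, forms of aldolase and enolase (log2FC -2.28 and -1.17). In contrast, the enzymes Pgam1 at 15183, 15085 and 15836 against 15198, 14942 and 14919.7 (log2FC 0.03, FDR of the likeness test 6.44e-62) and Gapdh at 27930.4, 28107 and 26651 against 26921, 23564 and 25631 (log2FC 0.12, FDR of the likeness test 9.27e-44) were alike.

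Matrix genes, a mark of fibroblasts, were lower in the knockout cells at day 5 than in the control cells at day 7. Of 39 collagen and matrix genes 12 (30.8%) were lower DEGs and 0 higher, with a median log2FC of -0.90, and the lower count was 8 without D5 KO replicate 3, D7 WT replicate 1 or D7 WT replicate 2 and up to 14 without another library. The summed level of the list was 85437 to 103342 normalised counts in the D5 KO libraries, 132084 to 142765 in D7 WT and 112175 to 135867 in D5 WT. Fn1, fibronectin, was at 3699, 5577 and 4038 in D5 KO and 11913, 11978 and 10879 in D7 WT (log2FC -1.39, SE 0.22, FDR 5.89e-08). Its level in D5 WT was 4151 ± 940.3 and in D7 KO 17014 ± 2090.5 (SD, n = 3), so fibronectin was above its day 5 level on day 7 in both genotypes. Col15a1, a collagen of basement membrane zones, was at 87.7, 128 and 77.8 in D5 KO and 338, 301 and 345 in D7 WT (log2FC -1.75, SE 0.37, FDR 6.13e-05), and D7 KO held 163. The structural collagens Col1a1, Col1a2 and Col3a1, chosen after their values were seen, had log2FC -0.97, -1.08 and -1.13 and did not pass the test (FDR 0.0869, 0.105 and 0.0814). Fbln2, a fibulin of elastic fibres, and Mmp14, a membrane-bound matrix protease, were alike (log2FC -0.14, FDR of the likeness test 1.24e-18, and log2FC -0.20, FDR of the likeness test 8.80e-10).

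The summed level of macrophage markers differed in the same direction. It was 363 to 424 normalised counts in D5 KO, 689 to 1186 in D7 WT and 272 to 383 in D5 WT, and the D5 KO mean was below D7 WT in 10 of 11 markers. D7 WT replicate 3 was the highest of the 6 libraries in 8 of the 11. The defining markers Adgre1, C1qa and C1qb and the leukocyte antigen Ptprc were chosen after their values were seen. Adgre1 was at 0 in all 3 D5 KO libraries and at 3.04, 0 and 23.7 in D7 WT. C1qa was at 1.91, 0 and 0.771 in D5 KO against 3.04, 3.02 and 32.9 in D7 WT, and C1qb at 0.954, 1.05 and 0 against 6.09, 5.03 and 31.9. Ptprc was at 15.3, 8.39 and 5.39 in D5 KO against 12.2, 9.06 and 6.17 in D7 WT, so it did not follow the rest. Of 6 markers tested 2 (33.3%, beside 4.16% of all genes tested) were lower DEGs and 0 higher. Lyz2, lysozyme, was at 4.77, 22.0 and 17.7 in D5 KO and 97.4, 66.5 and 330.3 in D7 WT (log2FC -3.47, SE 1.20, FDR 0.0285), and its call was lost without D7 WT replicate 3 (FDR 0.230), D7 WT replicate 1 (0.0503), D5 KO replicate 1 (0.132) or D5 KO replicate 3 (0.0708). Cd14, a receptor of monocytes, was at 3.81, 2.10 and 4.62 in D5 KO against 7.10, 9.06 and 13.4 in D7 WT (log2FC -1.44, FDR 0.0434), and its call was kept without D7 WT replicate 1 and lost without any other of the 6 libraries. The count of lower matrix genes without D7 WT replicate 3 was again 12. Every D7 WT library had a higher macrophage sum than every D5 KO library, so leaving out replicate 3 does not remove that difference. The part of macrophages or of unmarked MEFs in the matrix values was not tested.

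Other fibroblast lists were read beside the 4.16% of all genes tested that were lower. Among 27 fibroblast surface and intermediate genes 2 (7.41%) were lower, namely Pdgfrb, a PDGF receptor, and Fap, a surface protease. Pdgfrb was at 49.6, 104 and 83.2 in D5 KO and 199, 184 and 148 in D7 WT (log2FC -1.17, SE 0.30, FDR 0.00177), and its call was lost without D5 KO replicate 1 (log2FC -0.92, FDR 0.0403). Fap was at 1.91, 3.15 and 11.6 in D5 KO against 23.3, 31.2 and 8.23, with overlapping libraries (log2FC -1.83, SE 0.47, FDR 0.00192). The count was 4 without D5 KO replicate 2 or without D7 WT replicate 3. Tgfbr2, a TGF-beta receptor, and Cdh2, N-cadherin, were alike (log2FC -0.15, FDR of the likeness test 4.12e-11, and log2FC 0.02, FDR of the likeness test 7.15e-07). Of 24 contractile genes 3 (12.5%) were lower DEGs, a count that was 1 without D7 WT replicate 3. By FDR alone 5 of the 24 were lower and 2 higher, beside 9.52% lower and 6.46% higher of all genes tested. Cnn1, calponin, was at 18.1, 17.8 and 23.9 in D5 KO against 30.4, 65.4 and 95.7 (log2FC -1.67, SE 0.34, FDR 2.78e-05), and Lmod1, an actin nucleator of smooth muscle, at 3.81, 8.39 and 6.94 in D5 KO against 25.4, 11.1 and 34.0 (log2FC -1.88, SE 0.52, FDR 0.00439, lost without D7 WT replicate 3 at FDR 0.0594). The third, Myl9, a myosin light chain named after its values were seen, was no DEG when any one of the 6 libraries was left out (log2FC -1.69, FDR 0.0332 with all). Tagln2 and Tpm4, a transgelin and a tropomyosin, were alike (log2FC 0.35, FDR of the likeness test 2.33e-38, and log2FC -0.07, FDR of the likeness test 3.99e-35).

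Mesenchymal transcription factors went both ways. Of 32 tested, 2 were higher and 2 lower in D5 KO, and 16 (50%) were under 2-fold. Twist2, which promotes mesenchymal identity, was at 142, 110.2 and 126 in D5 KO and 63.9, 39.3 and 52.5 in D7 WT (log2FC 1.28, SE 0.18, FDR 4.09e-10). D5 WT was higher at 180.0 ± 6.35 (SD, n = 3), D3 WT was at 462, and D7 KO the lowest at 34.9. Foxf2, a forkhead factor of mesenchyme, was at 76.3, 59.8 and 80.9 in D5 KO against 26.4, 34.2 and 48.4 (log2FC 1.00, SE 0.26, FDR 0.00202), just past the fold threshold, and its call was lost without D5 KO replicate 1 or 3 or D7 WT replicate 1 or 2 (log2FC 0.82 to 0.96). Sox9, a factor of cartilage and other lineages, was lower at 31.5, 47.2 and 36.2 against 93.3, 94.6 and 117 (log2FC -1.42, SE 0.27, FDR 7.79e-06), as was Msx1, a homeobox factor, at 5.72, 4.20 and 5.39 against 22.3, 15.1 and 15.4 (log2FC -1.78, SE 0.48, FDR 0.00314). Nfia and Foxc1 were alike (log2FC 0.19, FDR of the likeness test 8.73e-13, and log2FC 0.14, FDR of the likeness test 1.30e-09).

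Epithelial genes, which mark the mesenchymal-to-epithelial step, were read beside the shares of all genes tested. Of 34 tested, 21 (61.8%, beside 70.6% of all genes) were under 2-fold, 2 (5.88%, beside 4.16%) were lower and 0 higher. By FDR alone 6 were lower and 1 higher, and the D5 KO mean was lower in 20 and higher in 14. The summed level of the list went the other way, at 172072 to 174569 normalised counts in D5 KO and 140977 to 154772 in D7 WT. D5 WT held 162180 to 175701. Spint2, a protease inhibitor of epithelia, was at 5127, 5229 and 4937 in D5 KO and 5256, 4803 and 4963 in D7 WT (log2FC 0.03, FDR of the likeness test 2.53e-17), and F11r, a tight junction protein, at 4740.1, 4675 and 4686 in D5 KO against 3860.4, 3941 and 4059 (log2FC 0.25, FDR of the likeness test 1.55e-10). The lower pair, Prss8, an epithelial protease, at 21.9, 14.7 and 11.6 against 64.9, 34.2 and 27.8 (log2FC -1.41, SE 0.41, FDR 0.00777) and Rab25, a trafficking GTPase, at 26.7, 37.8 and 37.8 against 117, 59.4 and 75.1 (log2FC -1.30, SE 0.39, FDR 0.00926), both lost the call without D7 WT replicate 1 (FDR 0.149 and 0.116). Prss8 also lost it without D5 KO replicate 3 (FDR 0.0744), and Rab25 without D5 KO replicate 1 (FDR 0.0689). Among 21 epidermal genes 13 (61.9%) were under 2-fold and 1 was lower, Krt1, a keratin of differentiating epidermis, at 17.2, 14.7 and 30.8 in D5 KO and 72.0, 196 and 56.6 in D7 WT (log2FC -2.37, SE 0.62, FDR 0.00234), a call lost without D7 WT replicate 2 (FDR 0.0854). Lgals7, a galectin, and Dsg3, a desmosome cadherin, were alike (log2FC -0.36, FDR of the likeness test 1.57e-05, and log2FC 0.29, FDR of the likeness test 8.12e-05).

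Proliferation genes did not separate the groups. All 46 DNA replication and cell cycle genes were under 2-fold, with Pcna, the replication clamp, at 8712, 8402 and 8122 in D5 KO and 8987, 8579 and 7848 in D7 WT (log2FC -0.01, FDR of the likeness test 1.66e-45) and Rpa2, a single-strand binding protein, at 1339, 1329 and 1288 in D5 KO against 1319, 1323 and 1259 (log2FC 0.02, FDR of the likeness test 1.15e-43). Of 22 p53 targets and cell cycle inhibitors 20 (90.9%) were under 2-fold, among them Bax, a death effector, and Eda2r, a receptor (log2FC 0.18, FDR of the likeness test 1.91e-17, and log2FC 0.01, FDR of the likeness test 1.74e-15). Cdkn1b, the inhibitor p27, was the lower member, at 111, 133 and 145 against 321, 343 and 263 (log2FC -1.25, SE 0.23, FDR 1.93e-06). AP-1 factors gave 0 DEGs of 12, with 8 (66.7%) under 2-fold, and Mafk and Fosl2 were alike (log2FC 0.03, FDR of the likeness test 2.91e-11, and log2FC -0.04, FDR of the likeness test 5.17e-11). In the LIF and STAT3 pathway, which sustains naive pluripotency, 13 of 15 members were under 2-fold, Stat3 at 3417, 3503 and 3645 in D5 KO against 3196, 3484 and 3934 and Klf5 at 371, 424 and 410.0 in D5 KO against 393, 452 and 451 among them (FDR of the likeness test 7.67e-25 and 2.96e-16), and Tfcp2l1 was the lower member. Housekeeping genes were under 2-fold in 11 of 12 (Sdha and Actb, FDR of the likeness test 1.21e-74 and 8.84e-41) and mitochondrial transcripts in 14 of 15 (mt-Rnr2 and mt-Co3, 3.23e-06 and 1.26e-05). DESeq2 and edgeR both called 0 DEGs in the cell cycle, AP-1, housekeeping and mitochondrial lists, and at an unadjusted p under 0.05 DESeq2 gave 11, 3, 3 and 1 genes of either direction and any size.

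**Figure D3:**
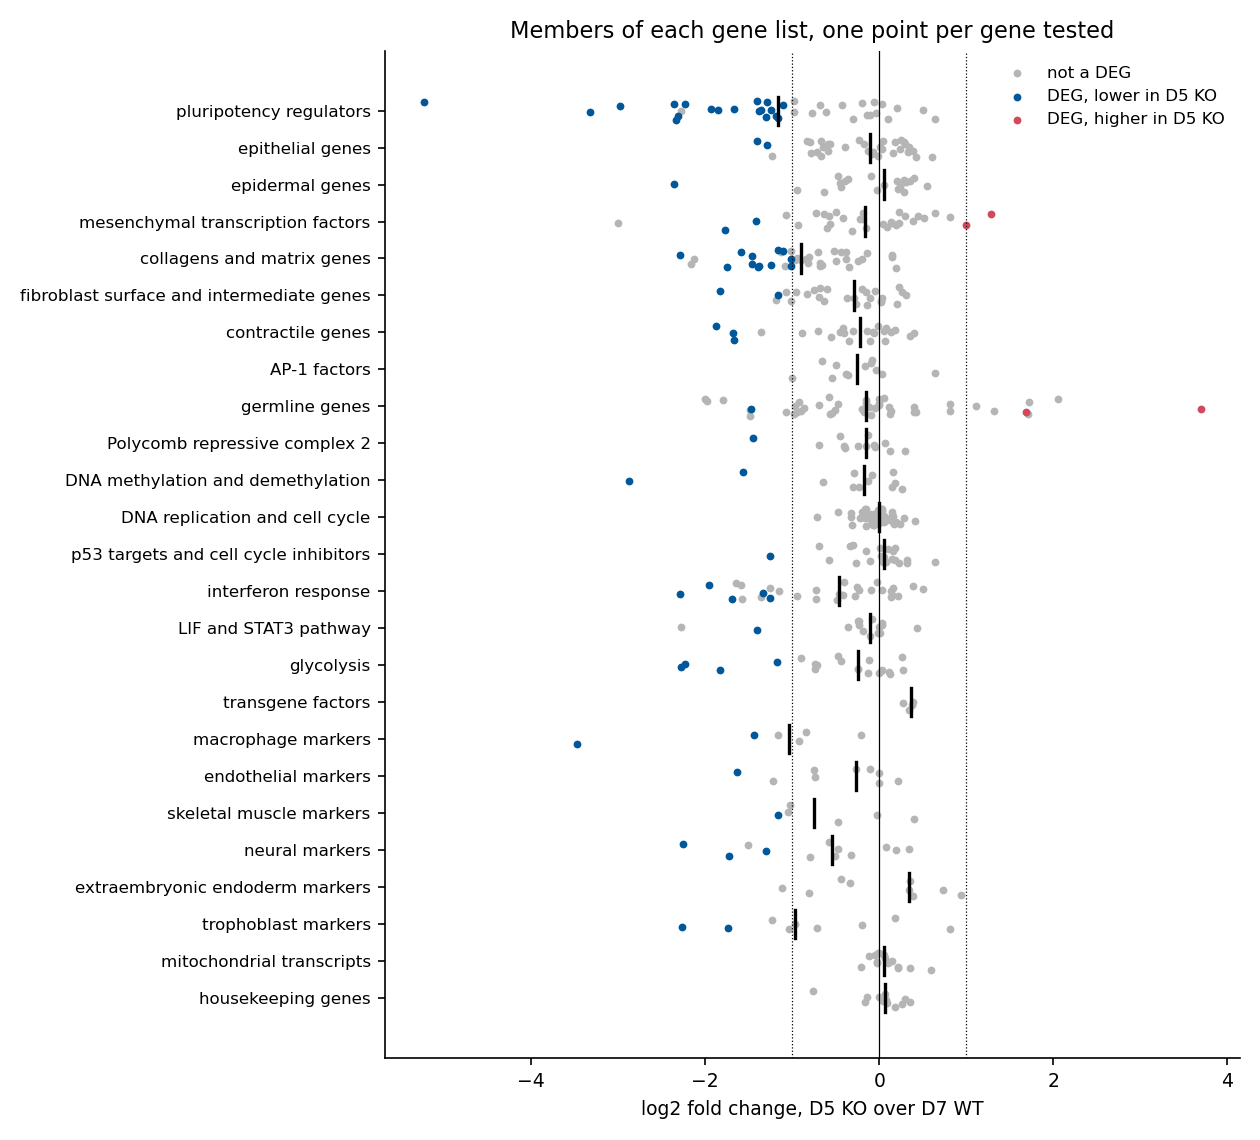
Log2 fold change, D5 KO over D7 WT, of every tested member of the 25 gene lists, 1 point per gene, with DEGs in colour, a black bar at the list median and dotted lines at a 2-fold difference. Pluripotency regulators (median -1.16) and matrix genes (-0.90) are spread to the left, cell cycle genes (-0.01) sit at 0, and the rightmost germline point, Hormad1, rests on counts of 0 in all D7 WT libraries.

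Most chromatin regulators differed by under 2-fold, and Tet1, Dnmt3l and Phf19 were lower DEGs. Of 12 genes of DNA methylation and demethylation 2 were lower DEGs and 9 (75%, beside 70.6% of all genes) under 2-fold. By FDR alone 4 of these 12 genes were lower and 0 higher. In Polycomb repressive complex 2 it was 5 of 13 lower and 0 higher, beside 9.52% lower and 6.46% higher of all genes tested. Tet1, which oxidises methylated cytosine, was at 264, 446 and 386 in D5 KO and 909.8, 1445 and 895 in D7 WT (log2FC -1.57, SE 0.18, FDR 9.70e-15), with 123 in D5 WT and 5385 in D7 KO. Dnmt3l, a cofactor of the de novo methyltransferases, was at 8.58, 4.20 and 12.3 in D5 KO against 39.6, 126 and 22.6 (log2FC -2.88, SE 0.54, FDR 4.41e-06). Trim28, the corepressor that KRAB domains bind, was alike at 11899, 12452 and 12053 in D5 KO against 13145, 12572 and 12844 (log2FC -0.08, FDR of the likeness test 3.17e-46), as was the glycosylase Tdg (log2FC 0.15, FDR of the likeness test 7.84e-31). In Polycomb repressive complex 2, 12 of 13 members were under 2-fold, including Rbbp7 at 8685, 8717 and 8635 in D5 KO against 7925, 7957 and 7983 (log2FC 0.13, FDR of the likeness test 2.06e-63) and the methyltransferase Ezh2 at 3074, 3249 and 3393 in D5 KO against 3618, 3592 and 3469 (log2FC -0.14, FDR of the likeness test 1.34e-34). Phf19, an accessory subunit, was lower at 4.77, 5.25 and 8.48 against 15.2, 30.2 and 6.17 (log2FC -1.45, SE 0.47, FDR 0.0191) with overlapping libraries, and was no DEG without D7 WT replicate 2 (FDR 0.423), D5 KO replicate 1 (0.0968) or D5 KO replicate 2 (0.0666).

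In the interferon response list, 5 of 31 genes (16.1%, beside 4.16% of all genes tested) were lower in D5 KO and 0 were higher. Under 2-fold were 13 (41.9%, beside 70.6% of all genes). H2-K1, a class I antigen-presenting molecule, was at 713, 615 and 795 in D5 KO and 1833, 1776 and 1763 in D7 WT (log2FC -1.34, SE 0.16, FDR 2.17e-13). Its D5 WT level, 1128 ± 90.0 (SD, n = 3), was above D5 KO (log2FC of D5 KO over D5 WT -0.67, FDR 0.00192), and D7 KO, at 1025, was below D7 WT. Isg15, a ubiquitin-like modifier, was at 7.63, 12.6 and 15.4 in D5 KO against 33.5, 69.5 and 37.0 (log2FC -1.96, SE 0.47, FDR 6.07e-04). The lower count was 2 without D5 KO replicate 1, D5 KO replicate 3 or D7 WT replicate 2, and 3 without D7 WT replicate 3. The remaining lower members, named after their values were seen, were Oasl1, Tap1 and Cxcl10 (log2FC -1.69, -1.26 and -2.29), and their calls held in 1, 2 and 1 of the 6 fits that left out a library. The macrophage values above stand beside this list too, and their part in it was not tested. H2-D1, another class I molecule, and Trim25, a ubiquitin ligase of antiviral sensing, were alike (log2FC -0.09, FDR of the likeness test 1.37e-10, and log2FC 0.15, FDR of the likeness test 1.11e-23).

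Germline genes were at low counts in both groups for many members. Of 47 members counted 17 had at most 3 reads in each of the 6 libraries, and of 45 tested 2 were higher and 1 lower, counts that became 1 and 2 without D7 WT replicate 1. Piwil2, an Argonaute-like protein of the germline piRNA pathway, was at 1694, 2092 and 1595 in D5 KO and 596, 669 and 411 in D7 WT (log2FC 1.68, SE 0.24, FDR 2.82e-10). Hormad1, a meiotic chromosome axis protein, had 0, 4.20 and 3.08 normalised counts in D5 KO and 0 in every D7 WT library. Its call (FDR 0.0373) was lost without any one library other than D5 KO replicate 1 and under edgeR (FDR 0.159), and no fold is given at this depth. Stag3, a meiotic cohesin subunit, was lower at 17.2, 7.34 and 9.25 against 26.4, 34.2 and 32.9 (log2FC -1.47, SE 0.40, FDR 0.00347). Tdrd1, a partner of PIWI proteins, and Zcwpw1, a histone reader of meiosis, were alike (log2FC 0.11, FDR of the likeness test 3.72e-10, and log2FC -0.11, FDR of the likeness test 0.00164).

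Markers of other lineages held scattered DEGs, all lower in D5 KO. The shares lower were 22.2% of trophoblast, 11.1% of endothelial, 16.7% of skeletal muscle and 25% of neural markers, beside 4.16% of all genes tested. Of 9 trophoblast markers 2 were lower, Eomes, a T-box factor, at 4.77, 7.34 and 5.39 against 29.4, 32.2 and 21.6 (log2FC -2.26, SE 0.48, FDR 9.27e-05) and Elf5, an ETS factor, at 13.4, 32.5 and 27.0 against 69.0, 97.7 and 77.2 (log2FC -1.74, SE 0.37, FDR 1.03e-04). Of 9 endothelial markers 1 was lower, the receptor Tie1, at 261, 354 and 274 in D5 KO and 886, 1064 and 815 in D7 WT (log2FC -1.64, SE 0.20, FDR 5.55e-14). Tie1 was at 99.1 in D5 WT and 2690.5 in D7 KO, while the other endothelial receptor Tek and the secreted protein Egfl7 were alike (log2FC -0.11, FDR of the likeness test 0.00130, and log2FC -0.01, FDR of the likeness test 5.28e-05). Of 12 neural markers 3 were lower, among them Foxd3, a neural crest factor that ESCs also express, at 5.72, 13.6 and 2.31 against 25.4, 41.3 and 30.9 (log2FC -2.25, SE 0.43, FDR 1.08e-05). Another, Elavl3, a neuronal RNA-binding protein named after its values were seen (log2FC -1.73, FDR 0.00361), was lost without D7 WT replicate 1. Stmn2 and Ncam1 were alike (log2FC 0.19, FDR of the likeness test 1.13e-05, and log2FC 0.08, FDR of the likeness test 2.01e-04). The muscle filament gene Des was at 42.0, 50.4 and 37.8 in D5 KO and 40.6, 52.4 and 198 in D7 WT, with overlapping libraries, and its call (log2FC -1.16, FDR 0.0438) rested on D7 WT replicate 3, without which the log2FC was -0.11 (FDR 0.906), and it was also lost without any one D5 KO library (FDR 0.0588 to 0.153). With replicate number as a block the log2FC of Des was -0.96, inside the fold threshold. Extraembryonic endoderm markers gave 0 DEGs of 9, with DESeq2 and with edgeR, and 1 at an unadjusted p under 0.05. Alike by the test were also Lamb1 (log2FC 0.38, FDR of the likeness test 0.00187), Sparc (log2FC -0.44, FDR of the likeness test 0.0385), Ascl2 (log2FC 0.18, FDR of the likeness test 0.00778) and Myh3 (log2FC -0.03, FDR of the likeness test 0.00357). For Sparc the likeness did not hold without D5 KO replicate 1 or 2 or D7 WT replicate 1 (FDR 0.0525 to 0.115).

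Genes higher in D5 KO than in D7 WT fell into those that were high in knockout cells and those that were high on day 5. Snx20, a sorting nexin, was at 402, 547 and 494 in D5 KO and 73.0, 87.6 and 112 in D7 WT (log2FC 2.40, SE 0.20, FDR 3.89e-29). D5 WT, at 89.9 ± 16.7 (SD, n = 3), was level with D7 WT, and D7 KO held 368. Nod2, a sensor of bacterial peptidoglycan, was at 322, 339 and 383 in D5 KO against 50.7, 42.3 and 72.0 (log2FC 2.66, SE 0.34, FDR 2.47e-12), with 91.2 in D5 WT and 162 in D7 KO. B3gnt3, a glycosyltransferase, was at 820.2, 722 and 453 in D5 KO against 229, 190.3 and 147 (log2FC 1.82, SE 0.42, FDR 4.09e-04), with 248 in D5 WT. For these 3 genes and Piwil2 all D5 KO libraries were above the 9 control libraries of days 3, 5 and 7, and D5 KO was also higher than D5 WT (log2FC 2.42, 1.93, 1.42 and 3.04 for Snx20, Nod2, B3gnt3 and Piwil2, FDR 1.91e-29, 1.33e-06, 0.0161 and 3.26e-32).

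The other higher genes named by FDR had D5 WT levels above D7 WT and D7 KO levels below it. Spink2, a protease inhibitor, was at 3559, 3865 and 3834 in D5 KO and 1879, 1849.7 and 1655 in D7 WT (log2FC 1.06, SE 0.09, FDR 2.24e-29), beside 3194 in D5 WT and 1484 in D7 KO. Gucy2e, a guanylate cyclase known from the retina, was at 896, 809.9 and 938 in D5 KO against 356, 351 and 399 (log2FC 1.26, SE 0.11, FDR 5.66e-26), beside 731 in D5 WT and 216 in D7 KO. Both were nonetheless above all 9 control libraries in D5 KO. Lrrk2, a large kinase, was at 1004, 1017 and 949 in D5 KO against 288, 369 and 386 (log2FC 1.51, SE 0.21, FDR 7.09e-11), with 1299, 697 and 347 in controls of days 3, 5 and 7. Camk4, a calcium-dependent kinase, was at 712, 519 and 571 in D5 KO against 301, 287 and 283 (log2FC 1.05, SE 0.16, FDR 2.36e-09) and fell inside the fold threshold without D5 KO replicate 1 (log2FC 0.91). Gm11639 was at 506, 616 and 739 in D5 KO against 258, 184 and 250.0 (log2FC 1.43, SE 0.24, FDR 1.46e-07). Gm29100, which overlaps Twist2 on the opposite strand, was at 81.1, 82.9 and 82.5 in D5 KO against 27.4, 25.2 and 23.7 (log2FC 1.69, SE 0.25, FDR 2.77e-09), and since the use of strand in counting was not given in the sources used here, its reads and those of Twist2 may not be told apart. The same holds for the DEGs Camk4, Col15a1, Des, Dnmt3l, Eomes, Fn1, Foxf2, Gng3, Mpnd, Nt5dc2, Prss8 and Slc2a1, which each overlap an annotated gene on the other strand.

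Several of the 10 lower genes with the lowest FDR had a D5 WT mean on the side of D5 KO. In Amt, Mdk, Apoe, Slc2a1 and Slc16a3 it was nearer to D5 KO than to D7 WT. Amt, of the glycine cleavage system, was at 143, 166 and 147 in D5 KO and 408, 435 and 402 in D7 WT (log2FC -1.45, SE 0.12, FDR 2.24e-29), with 108 in D5 WT. Mdk, the growth factor midkine, was at 30.5, 46.2 and 26.2 in D5 KO against 214, 202 and 180.1 (log2FC -2.55, SE 0.26, FDR 3.34e-19), with 24.2 in D5 WT. Apoe, a lipid carrier, was at 36.2, 35.7 and 47.0 in D5 KO against 152, 265 and 144 (log2FC -2.23, SE 0.23, FDR 7.67e-19), with 46.8 in D5 WT. The rest of this group were Gng3, a G protein subunit (log2FC -1.95, FDR 4.12e-20), Cul7, a ubiquitin ligase scaffold (log2FC -1.22, FDR 9.05e-19), Enpp3, an ectonucleotidase (log2FC -2.74, FDR 7.08e-18), and Mpnd, with Pdk1, Slc2a1 and Slc16a3 from above. In each of the 10 genes the D7 KO mean was above the D7 WT mean.

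Relative to control cells of days 3, 5 and 7, D5 KO lay outside the whole range of 9 libraries, above it in 21 of the 88 higher DEGs (23.9%) and below it in 57 of the 805 lower DEGs (7.08%). Over all genes tested the shares were 2.11% above and 1.91% below, and the DEGs were chosen to differ from 3 of these 9 libraries. Mpnd, the gene with the lowest FDR below the range, was at 91.6, 75.5 and 84.8 in D5 KO, while the means of D3 WT, D5 WT and D7 WT were 118, 93.3 and 211 (log2FC -1.32, SE 0.14, FDR 1.76e-18). Plod1, which hydroxylates collagen, was at 129.7, 133 and 109 with control means of 207, 146 and 448 (log2FC -1.86, FDR 8.06e-16). Arrdc4, an arrestin-like protein (log2FC -1.17, FDR 2.31e-14), Grina (log2FC -1.19, FDR 3.97e-13) and Nt5dc2 (log2FC -1.46, FDR 1.79e-12) were the next in order. Nt5dc2 was at 97.3, 101 and 178 in D5 KO against 754, 261 and 347 in the controls, and was lower than D5 WT as well (log2FC -1.05, FDR 3.36e-06). These genes were chosen on D5 KO and D7 WT, so their place against the controls is a description.

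For most DEGs the control cells of day 5 lay on the side of D5 KO. The D5 WT mean (log2 of normalised counts plus 1) was nearer to D5 KO than to D7 WT in 673 of 805 lower DEGs (83.6%) and in 69 of 88 higher DEGs (78.4%). The knockout cells at day 7 placed ESC- and MEF-associated genes differently. Among 325 ESC-associated genes lower in D5 KO, D7 KO was past D7 WT in 250 (76.9%) and remained nearer to D5 KO, or moved away from D7 WT, in 26 (8%). Among 332 MEF-associated genes lower in D5 KO the counts were 121 (36.4%) and 119 (35.8%). Among the lists, D7 KO was past D7 WT in 18 of the 19 lower pluripotency regulators and 4 of the 4 lower glycolysis genes, but in 1 of the 12 lower matrix genes, Fn1, whereas 9 of those 12 stayed nearer to D5 KO. These counts share D7 WT with the choice of genes and carry no test.

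**Figure D4:**
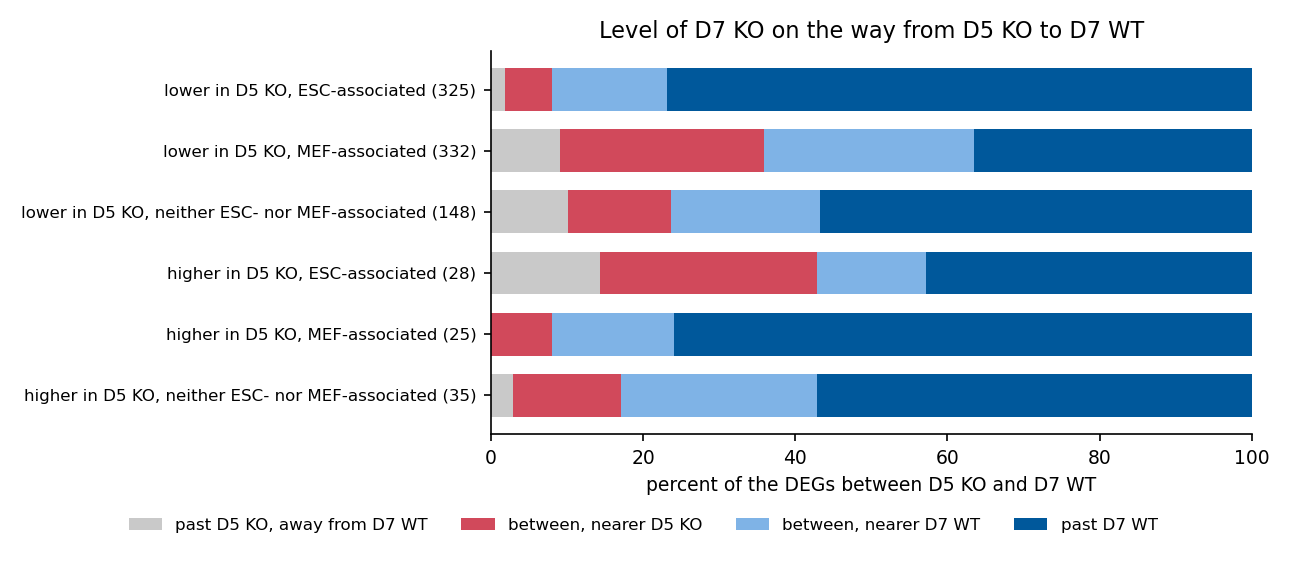
Where D7 KO lies on the way from D5 KO to D7 WT, as the share of DEGs in each class (bars add up to 100%, number of genes in brackets, means of log2 normalised counts plus 1). In 76.9% of the ESC-associated and 36.4% of the MEF-associated genes lower in D5 KO, D7 KO is past D7 WT.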

How the data were processed

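Messenger RNA was sequenced in 36 libraries, 3 for each of 12 groups. The deposited values are raw read counts per gene: the authors checked reads with FastQC, trimmed adapters with Cutadapt, joined the runs of a sample, aligned to GRCm38.p6 with STAR and counted reads with Rsubread, and tool versions and the strand setting were not given in the sources used here. Deposited normalised, log-scale and fold change tables were not used. The log-scale table was corrected by the authors for batches such as library preparation date, which the labels do not give, so no batch was modelled here.

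Counts of all 36 libraries (21442 genes) were fitted with DESeq2 1.42.0 in R 4.3.3, with median-ratio size factors, 1 coefficient per group, the two-sided Wald test and Benjamini-Hochberg FDR. DEGs had FDR under 0.05 and log2FC beyond 1. Likeness was tested as a log2 difference smaller than 1. Axis positions are projections of log2(normalised count + 1) on the line between 2 group means and were compared by exact two-sided permutation. A count of 0 was given a limit of 3 reads. The 21417 gene IDs found in GENCODE gave coordinates and overlapping genes. The procedures were tested on simulated data.

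Replicate numbers are shared by the groups. Deviations from the group means correlated at 0.228, 0.174 and 0.324 across 13696 genes for same-numbered D5 KO and D7 WT libraries. On this evidence of the data the numbers were taken to pair the samples. For the other library pairs the values were -0.213 to -0.0517. Deviations within a group cancel out, so negative values there go with the positive ones and add no evidence. Named genes were Zfp266, the genes the study names from these libraries, the 10 DEGs with the lowest FDR in each direction without overlap, in each list the 2 DEGs per direction and the 2 alike genes with the lowest FDR, and the 5 DEGs per direction with the lowest FDR outside the control range. Genes beyond this rule are said to be chosen after their values were seen. A gene that the rule names is not reported here. The comparison and the 25 lists were chosen with earlier results of these data known. Alternatives were edgeR 4.0.16 (quasi-likelihood test), TMM scaling, fewer libraries in the fit, a low-count filter, no independent filtering, a replicate block, other thresholds and pseudocounts, and leaving out each of the 6 libraries.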

Additional observations from a re-analysis of the deposited data

How the results depend on the processing

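No axis difference and no named DEG changed direction under any alternative, and the lower DEGs outnumbered the higher under each. The germline list, with 2 higher and 1 lower DEGs, gave 1 and 2 with only the 6 or the 18 libraries or without D7 WT replicate 1. Built into the test, the fold threshold left 38 DEGs (2 higher and 36 lower), and 9 of the 57 named DEGs kept the call and 48 lost it, while FDR alone gave 3093 (1251 higher and 1842 lower). With classes taken by FDR alone, 19 rising genes were higher and 60 falling genes lower, and D5 KO minus D7 WT was 5.26 points on falling genes and -28.4 on the rising minus falling position. With a pseudocount of 10, the difference on the MEF-to-ESC axis was 1.01 for all genes, -6.46 for ESC-associated genes, 4.92 for MEF-associated genes and -11.4 for the gap. With genes of at least 50 counts, the difference on the control axis was -9.88 for all, -13.8 for rising and 6.11 for falling genes and -19.9 for rising minus falling, and 0.874 for all genes of the MEF-to-ESC axis. For these the cause was not tested. Leaving out 1 library gave 58 to 88 higher DEGs, 7 to 14 higher falling genes and 20 to 34 higher genes of neither class, the lowest without D7 WT replicate 2, D5 KO replicate 3 and D7 WT replicate 2. TMM scaling gave 99 higher and 762 lower DEGs, edgeR 104 and 732, only the 6 libraries 91 and 692, only the 18 reprogramming libraries 112 and 803, the low-count filter 88 and 806, and no independent filtering 90 and 826. TMM moved the median log2FC of all genes by 0.03.

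With replicate number as a block, on the evidence of the pairing, 100 genes were higher and 835 lower, 13697 were under 2-fold, and of the named genes only Des left the DEGs. The paired fit was not made for the axes, which come from 3 positions a group. Among the named genes, 49 combinations of a gene and an alternative other than the fold threshold built into the test lost a DEG call or a call of likeness, and none gained one. With 3 libraries a group the permutation tests could not go below 0.1. Depth limits Hormad1, Dppa3, Adgre1 and other genes near 3 reads. Zfp266 transcript levels do not show how many cells were edited.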
